A study of Mus musculus with 12 samples.

Results

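The Adam genes encode membrane-anchored proteins with a disintegrin and a metalloprotease domain. Every gene whose symbol is Adam followed by a number and at most 1 letter was taken, which leaves out the secreted Adamts proteases. The adult arrays held 34 such genes of 19938 genes measured, and the arrays of postnatal day 3 (P3) held 28 of 18194, all of which were also on the adult arrays. From textbook knowledge, 22 of the 34 are mainly genes of testis or epididymis and 12 are widely expressed or somatic. On the P3 arrays these classes had 16 and 12 genes. The 6 genes measured only in adults were Adam20, Adam26b, Adam29, Adam30, Adam34l and Adam39.

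The series compared gene expression in gonads with and without Foxl2, a forkhead transcription factor of ovarian granulosa cells. The adult groups, 8 weeks old, were 3 Foxl2 mutant ovaries (Foxl2 flox/flox x CreEBD), 3 wild-type testes and 2 wild-type ovaries, each from 1 perfused animal. The labels name neither the promoter that drives the Cre nor the time of deletion, and they do not say whether the wild-type mice carried a floxed allele or the Cre. The P3 groups were 2 Foxl2 KO and 2 wild-type ovary samples, each a pool of more than 10 females that were not perfused. Ovaries were taken whole and only part of each testis was used, so all values are averages over the cells of an organ. In such bulk samples fewer cells of a type and less RNA per cell cannot be told apart.

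Adam proteins work in 2 broad ways. Sheddases such as Adam10 and Adam17 cut the outer part off other membrane proteins, among them Notch receptors, growth factor precursors and cytokines. Many other members are made in male germ cells, are processed as sperm mature and take part in sperm migration through the oviduct and in binding to the egg coat. In the ovary, shedding of growth factors of the epidermal growth factor family is known to relay the ovulatory signal between granulosa cells.

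The promoter sequences of these classes looked different, and examples are printed first. The classes were set from knowledge of where the genes are expressed, so a division of testis and ovary levels along them was built in. Windows of 300 bases, 250 before and 50 after an annotated start, came from RefSeq on GRCm38.p6 and matched 18 of the 34 genes, with 20 windows. The 11 windows of testis and epididymis members held 0 to 4 CpG dinucleotides, with a median of 1. The 9 windows of the 7 somatic members held 5 to 32, with a median of 19. The median of all 32851 windows in the table was 7. In the sequences below capitals mark each CpG. The first pair belongs to the sheddases Adam10 (chr9:70678732-70679031, plus strand) and Adam17 (chr12:21373583-21373882, minus strand). The other 3 belong to the testis members Adam20 (chr8:40793023-40793322, plus strand), Adam29 (chr8:55906915-55907214, minus strand) and Adam1a (chr5:121521646-121521945, minus strand).
Adam10: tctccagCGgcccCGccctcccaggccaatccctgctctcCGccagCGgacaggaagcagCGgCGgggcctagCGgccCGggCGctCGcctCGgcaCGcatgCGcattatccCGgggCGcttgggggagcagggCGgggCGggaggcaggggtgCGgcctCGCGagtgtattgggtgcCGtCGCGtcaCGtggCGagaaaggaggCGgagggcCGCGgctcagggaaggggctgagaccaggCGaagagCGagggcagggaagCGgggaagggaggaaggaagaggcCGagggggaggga
Adam17: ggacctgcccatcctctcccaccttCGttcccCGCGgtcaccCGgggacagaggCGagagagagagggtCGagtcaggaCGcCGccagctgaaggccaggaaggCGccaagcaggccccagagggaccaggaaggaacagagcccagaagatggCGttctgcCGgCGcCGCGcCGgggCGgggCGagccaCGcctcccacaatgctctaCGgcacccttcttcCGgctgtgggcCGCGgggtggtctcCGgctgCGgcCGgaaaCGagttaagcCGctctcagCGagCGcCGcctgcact
Adam20: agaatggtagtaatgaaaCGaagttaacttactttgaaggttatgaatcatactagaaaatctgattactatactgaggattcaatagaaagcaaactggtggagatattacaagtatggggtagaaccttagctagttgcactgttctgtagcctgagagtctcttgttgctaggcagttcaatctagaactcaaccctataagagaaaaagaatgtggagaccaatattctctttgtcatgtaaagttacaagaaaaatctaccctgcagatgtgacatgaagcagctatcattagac
Adam29: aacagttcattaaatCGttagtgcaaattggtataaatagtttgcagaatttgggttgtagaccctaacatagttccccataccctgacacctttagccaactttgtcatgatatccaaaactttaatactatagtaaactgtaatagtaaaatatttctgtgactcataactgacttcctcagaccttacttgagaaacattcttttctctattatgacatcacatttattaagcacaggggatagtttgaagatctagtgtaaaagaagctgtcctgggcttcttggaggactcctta
Adam1a: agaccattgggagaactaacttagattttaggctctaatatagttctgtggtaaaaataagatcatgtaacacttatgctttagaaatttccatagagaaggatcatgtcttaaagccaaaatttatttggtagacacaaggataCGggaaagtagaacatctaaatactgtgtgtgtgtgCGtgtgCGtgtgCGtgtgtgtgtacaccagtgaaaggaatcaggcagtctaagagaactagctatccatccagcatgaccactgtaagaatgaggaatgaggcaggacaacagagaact
Adam10 had 32 CpGs and Adam17 had 30, whereas Adam20 and Adam29 had 1 each and Adam1a had 4, of which 3 lie in a run of alternating GT.

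**Figure D1:**
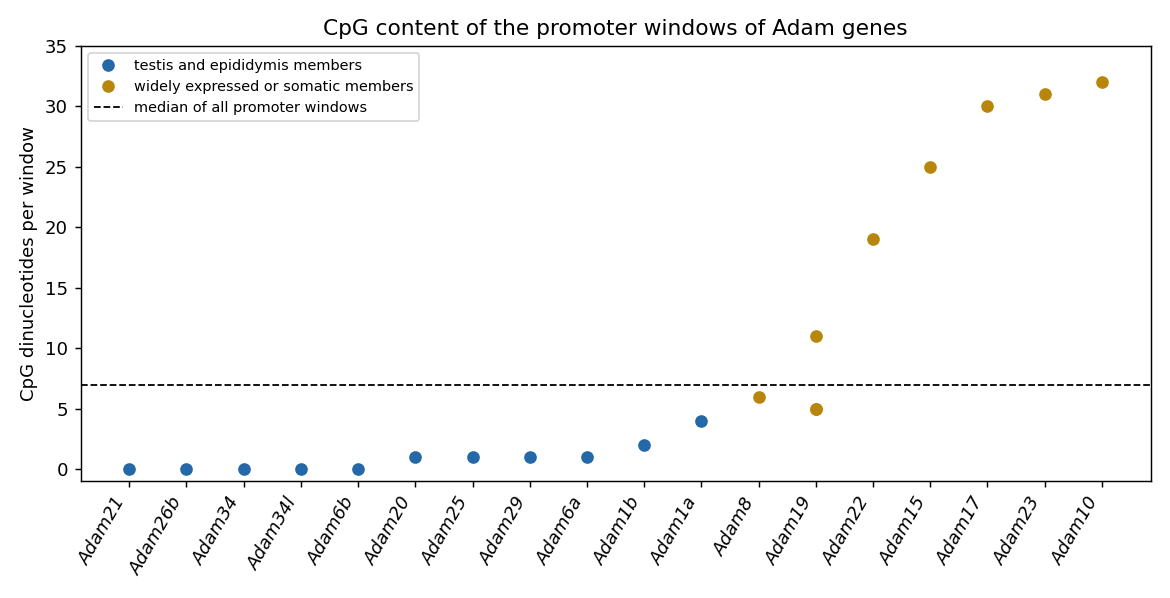
CpG dinucleotides per 300-base promoter window (y axis) for the 18 Adam genes with a window, 1 point per window. Adam19 has 3 windows, of which 2 lie on the same point at 5. The testis and epididymis members (blue) hold at most 4 CpGs, below the dashed median of 7 of all windows, and the somatic members (ochre) hold 5 to 32.

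High CpG content was not shared by every somatic member. At least 15 CpGs were found in 5 of the 9 somatic windows (55.6%, against 34.6% of all windows), those of Adam10, Adam15, Adam17, Adam22 and Adam23. Adam8, a leukocyte member, had 6, and the 3 windows of Adam19 (meltrin beta) had 5, 5 and 11. The TATA box letters TATAAA, searched anywhere in a window on both strands, were present in 4 of the 11 testis member windows (36.4%, against 13.6% of all windows). These were the windows of Adam29, Adam34l, Adam6a and Adam6b, and 0 of the 9 somatic windows had a match. The distance of a match from the start was not checked, so a match need not be a working TATA box. The Adam34 and Adam34l pair and the Adam6a and Adam6b pair are close paralogs, so their windows are not independent examples.

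Other motifs were rare. The cAMP response element TGACGTCA, bound in spermatids by the activator Crem, was in 0 of the 20 windows and in 1.79% of all windows. The Foxl2 element GTCAAGG was in the window of Adam1b only, against 3.18% of all windows, and the Sox element ACAATGG was in none, against 3.66%. The forkhead element TGTTTAC was in the window of Adam8 and in 1 of the 3 windows of Adam19, against 3.65% of all windows. All were searched on both strands, no 2 of these motifs overlap in a member window, and a match is a description of letters only. The Adam19 window (chr11:46054252-46054551, plus strand) is printed because Adam19 is the member that fell most in mutant ovaries. Capitals mark the forkhead element, whose first base is at -175 from that start.
Adam19: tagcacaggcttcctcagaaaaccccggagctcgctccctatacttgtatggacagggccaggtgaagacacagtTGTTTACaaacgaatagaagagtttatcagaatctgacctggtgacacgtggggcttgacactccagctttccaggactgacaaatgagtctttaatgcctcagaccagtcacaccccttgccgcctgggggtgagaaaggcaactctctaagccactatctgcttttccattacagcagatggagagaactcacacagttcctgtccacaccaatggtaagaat

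Foxl2, the deleted gene, was checked first. Foxl2 fell by 2.92 on the log2 scale in adult mutant ovaries against wild-type ovaries (limma adjusted p = 5.08e-07) and by 2.18 in P3 KO ovaries (limma adjusted p = 0.0238). The P3 call did not hold without any 1 of the 4 arrays (adjusted p = 0.0854 to 0.333), with differences between -2.30 and -2.05. It was also lost without the intensity trend (adjusted p = 0.15) and with the mean of probe sets, which gave -1.27 (adjusted p = 0.23). Sox9, a Sertoli cell factor, was 3.68 higher in adult mutant ovaries (limma adjusted p = 1.37e-07), while at P3 its difference of 0.86 did not pass (limma adjusted p = 0.672). The mean level of 18 spermatocyte and spermatid markers was 3.59 to 3.68 in the mutant ovaries, 10.28 to 10.35 in the testes and 3.74 to 3.75 in the wild-type ovaries. The 2 wild-type ovaries differed from each other, with a mean level of 12 oocyte markers of 7.33 and 5.70 and of 11 granulosa cell markers of 9.45 and 8.70.

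Most Adam genes differed between testes and wild-type ovaries. Of the 34 genes, 23 were higher in testes and 6 were lower (limma adjusted p under 0.05 over all genes), against 24.4% and 35.9% of all genes. The 23 were 21 of the 22 testis and epididymis members plus the neural members Adam11 and Adam22. The 6 were Adam9, Adam10, Adam12, Adam15, Adam17 and Adam19. The median difference was 4.18 over the 22 testis and epididymis members and -0.86 over the 12 somatic members, and -0.15 over all genes. The 5 genes that did not pass were Adam7, Adam8, Adam23, Adam28 and Adam33.

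Sperm surface members led the testis group. Adam5 (tMDC II) had log2 RMA levels of 11.10, 11.23 and 11.30 in the testes, against 3.88 and 3.51 in the wild-type ovaries, a difference of 7.52 ± 0.15 (SE, 183-fold, limma adjusted p = 7.23e-11). Adam3 (cyritestin), needed for sperm to pass into the oviduct and bind the egg coat, had 11.23, 11.30 and 11.32 in the testes, against 4.12 and 4.08 in the wild-type ovaries. Its difference was 7.18 ± 0.17 (limma adjusted p = 1.9e-10). For both genes the testes lay close together and far above the ovaries.

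Adam32, another sperm surface member, had 10.37, 10.31 and 10.48 in the testes and 3.49 and 3.12 in the wild-type ovaries. Adam2 (fertilin beta), the common partner of several sperm Adam complexes, had 9.54, 9.69 and 9.70 in the testes and 3.08 and 3.17 in the wild-type ovaries. Their differences were 7.08 ± 0.14 and 6.52 ± 0.14. Adam18 (tMDC III) was 5.31 ± 0.14 higher in testes.

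The fertilin alpha genes were also high in testes. Adam1a, whose protein pairs with Adam2 inside the cell, had 9.77, 9.80 and 9.64 in the testes and 4.37 and 4.57 in the wild-type ovaries. Adam1b, whose protein pairs with Adam2 on the sperm surface, had 8.77, 8.74 and 8.65 in the testes and 4.03 and 3.67 in the wild-type ovaries. The differences were 5.27 ± 0.13 and 4.87 ± 0.15. The sequences of Adam1a and Adam1b are close, and how far RNA of one binds the probes of the other was not tested, which holds as well for the pairs Adam6a and Adam6b, Adam26a and Adam26b, and Adam34 and Adam34l.

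The testases, germ cell members with an intact or near-intact protease site, spanned a wide range. Adam24 (testase 1) had 8.21, 8.01 and 8.24 in the testes and 2.96 and 3.02 in the wild-type ovaries, a difference of 5.16 ± 0.15. Adam25 (testase 2) was 3.46 ± 0.15 higher, Adam34 (testase 4) 2.53 ± 0.17 higher and Adam26a (testase 3) 2.04 ± 0.15 higher in testes. Adam26b had the smallest called rise of the testis members, 1.84 ± 0.47 (limma adjusted p = 0.00602). Its testis levels were 3.53, 3.58 and 5.48, against 2.36 and 2.35 in the wild-type ovaries, so 1 testis lay far above the other 2. Without testis 3 the difference was 1.20 and still passed.

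The other testis members rose by 2.31 to 4.77. They were Adam6a (4.77), Adam30 (4.45), Adam20 (4.43), Adam6b (3.93), Adam4 (3.30), Adam29 (3.21), Adam21 (3.13), Adam39 (2.85) and Adam34l (2.31). In each of the 21 genes called, all 3 testes lay above both wild-type ovaries. Adam7, made in the epididymis and carried onto sperm there, was the exception of its class. It had 2.65, 2.50 and 2.71 in the testes and 2.83 and 2.59 in the wild-type ovaries (limma adjusted p = 0.551). The mean level of 6 epididymis markers was 3.36 to 3.45 in the testes and 3.42 to 3.53 in the wild-type ovaries.

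**Figure D2:**
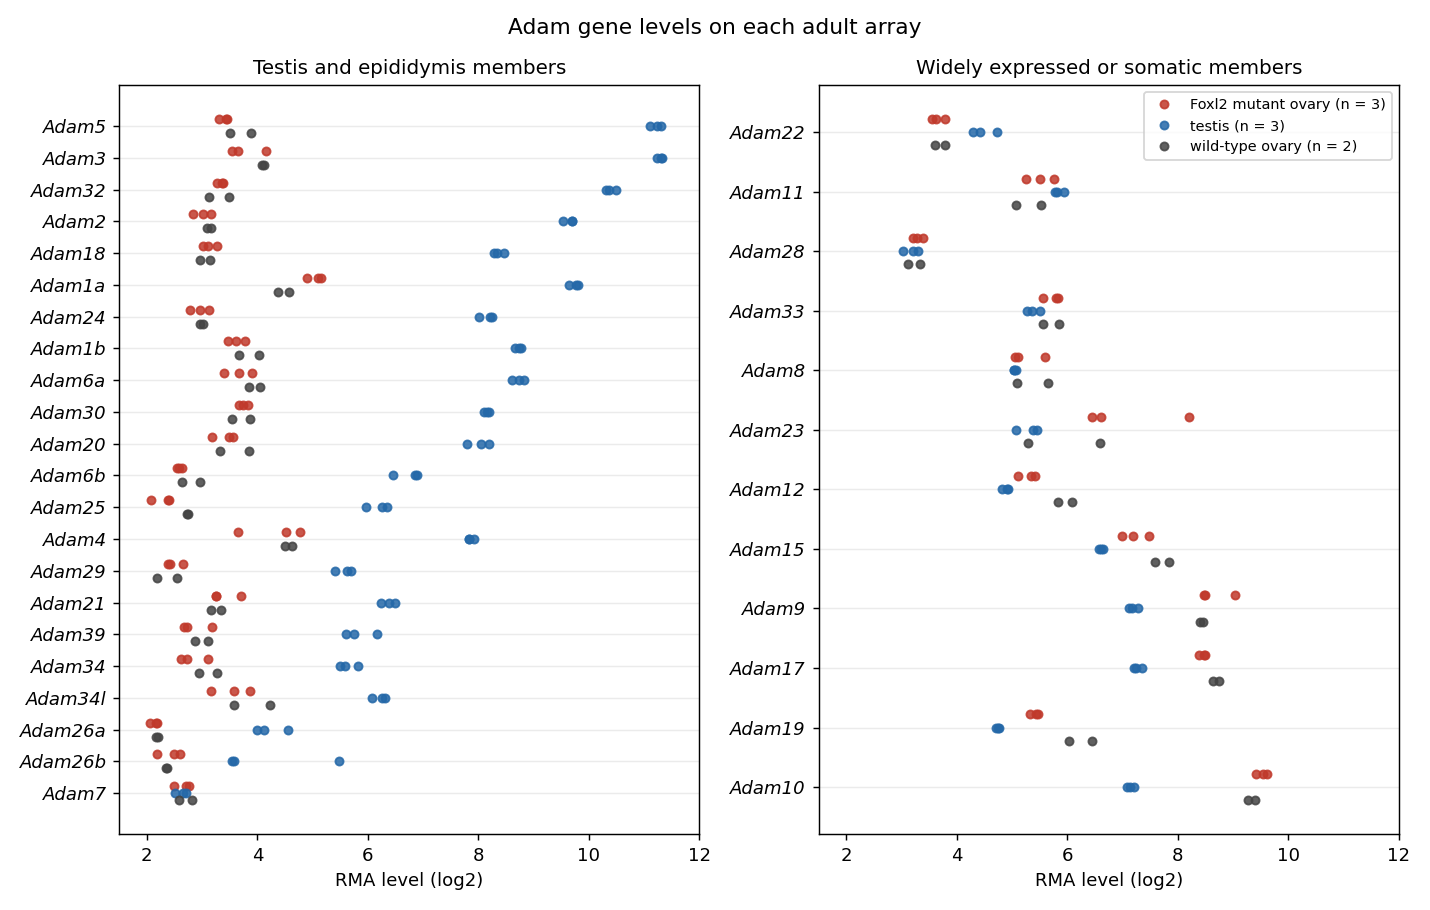
Log2 RMA level (x axis) of each Adam gene on each adult array, with 3 Foxl2 mutant ovaries (red), 3 testes (blue) and 2 wild-type ovaries (grey). Among testis and epididymis members the testes stand apart from all ovaries except at Adam7, and of the mutant ovaries' differences from wild-type ovaries in this panel only that of Adam1a passed. Among somatic members the testes lie lowest for Adam9, Adam10, Adam12, Adam15, Adam17 and Adam19. They also lie lowest for Adam33, where the difference from wild-type ovaries did not pass. Levels of different genes come from different probes and are not compared.

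The sheddases were lower in testes. Adam10, which cuts Notch receptors and cadherins, had 7.07, 7.14 and 7.21 in the testes and 9.39 and 9.26 in the wild-type ovaries, a difference of -2.19 ± 0.11 (4.55-fold lower, limma adjusted p = 3.49e-08). Adam17, the tumour necrosis factor converting enzyme, had 7.36, 7.24 and 7.20 in the testes and 8.74 and 8.63 in the wild-type ovaries, a difference of -1.42 ± 0.11 (limma adjusted p = 9.77e-07). Both groups were tight, and the testes lay below the ovaries for each gene.

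The meltrins and Adam15 followed the same direction. Adam19 had 4.77, 4.71 and 4.74 in the testes against 6.44 and 6.03 in the wild-type ovaries, a difference of -1.50 ± 0.15. Adam9 (meltrin gamma) differed by -1.24 ± 0.17, Adam15 (metargidin) by -1.10 ± 0.16 and Adam12 (meltrin alpha) by -1.07 ± 0.15. All 4 passed in limma, with the largest adjusted p of 0.00011 at Adam15. Smooth muscle markers include genes of ovarian and vascular muscle. Their mean levels were 6.82 to 7.02 in the testes and 8.16 to 8.50 in the wild-type ovaries. Of these 6 markers 5 were lower in testes and 1 was higher, by 1.71, against 35.9% and 24.4% of all genes. Endothelial markers had mean levels of 4.77 to 4.84 in the testes and 7.22 to 7.71 in the wild-type ovaries. Of these 6 markers 5 were lower and 0 higher, against the same shares. The part of these cell types in these falls was not tested.

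The neural members that do not cut proteins and bind Lgi ligands were mixed. Adam22 had 4.30, 4.73 and 4.42 in the testes and 3.60 and 3.79 in the wild-type ovaries, a difference of 0.79 ± 0.15 (limma adjusted p = 0.00105). Adam11 had 5.82, 5.78 and 5.95 in the testes and 5.52 and 5.06 in the wild-type ovaries, a difference of 0.55 ± 0.18 (limma adjusted p = 0.0242). The Adam11 call did not hold without wild-type ovary 2 (0.32, limma adjusted p = 0.198), without testis 1 (adjusted p = 0.051) or without testis 3 (adjusted p = 0.0745). Adam23 did not pass, with 5.07, 5.38 and 5.44 in the testes and 6.60 and 5.29 in the wild-type ovaries. Of the 4 Lgi ligand genes, Lgi2 (-0.97) and Lgi3 (-0.80) were lower in testes and the other 2 did not pass. Lgi3 lost its call when wild-type ovary 1 was left out (-0.54, limma adjusted p = 0.0615).

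Adam8, Adam28 and Adam33 did not pass in testes. Adam8 differed by -0.32 ± 0.20 (limma adjusted p = 0.195). When wild-type ovary 2 was left out, the difference was -0.59 and passed (adjusted p = 0.0337). Adam33, a smooth muscle and fibroblast member, differed by -0.32 ± 0.15 (limma adjusted p = 0.0955). Leaving out wild-type ovary 1 gave -0.46, which passed (adjusted p = 0.046). Adam28, a lymphocyte and epididymis member, differed by -0.05 ± 0.12.

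Position in the genome did not go with class throughout. In the RefSeq gene order, 17 of the 34 genes lie next to another Adam gene. The longest run of members holds Adam18, Adam3, Adam5, Adam32 and Adam9. In testes the first 4 were 5.31, 7.18, 7.52 and 7.08 higher than in wild-type ovaries, whereas Adam9, next to Adam32, was lower (-1.24). Other runs hold testis members only, such as Adam24, Adam25, Adam20 and Adam39, and Adam26b, Adam26a, Adam34l and Adam34.

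Factors that process the sperm Adam proteins were mostly higher in testes. Of 14 measured maturation factors, 11 were higher and 3 lower in testes than in wild-type ovaries, against 24.4% and 35.9% of all genes. The median difference was 3.72, against -0.15 over all genes, and a minimum of 2-fold left 1 lower. Among the risen genes were Clgn (6.98), a chaperone needed to assemble the Adam1 and Adam2 pair, Cmtm2b (6.46), Prss37 (5.46), a protease-like protein needed for Adam3 processing, Pmis2 (5.30), Prss55 (5.27) and Pdilt (5.24), a germ cell disulfide isomerase homologue. Of 9 sperm and egg adhesion and fusion genes, 7 were higher and 1, the egg tetraspanin Cd9 (-2.24), was lower, against the same shares of all genes. Without wild-type ovary 2 the count of lower genes was 2. The largest rises there were Llcfc1 (6.12) and Dcst1 (5.13). Izumo1 also stands on the spermatid marker list.

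Partners and substrates of the sheddases were mostly lower in testes. Of 15 partners and inhibitors of Adam10 or Adam17, 10 were lower and 2 higher, against 35.9% and 24.4% of all genes, with a median difference of -1.09, against -0.15 over all genes. The count of higher genes was 1 without any 1 testis, without wild-type ovary 1 or with a minimum of 2-fold. Timp1 (-3.69) and Timp3 (-2.25), tissue inhibitors of metalloproteases, Tspan15 (-3.09) and Tspan14 (-2.80), tetraspanins that escort Adam10, the maturing protease Furin (-2.24) and Rhbdf2 (-2.18), which carries Adam17 to the surface, fell most. Of 20 measured substrates, 13 were lower and 1 higher, against the same shares of all genes, with a median of -0.83. The count of lower genes was 8 with a minimum of 2-fold, and that of higher genes was 0 at this minimum and without testis 1, testis 3 or wild-type ovary 2. The tumour necrosis factor receptors Tnfrsf1a (-2.19) and Tnfrsf1b (-2.15), Kitl (-2.07) and App (-1.83) fell most. All of these named genes passed in limma over all genes.

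Adult mutant ovaries against wild-type ovaries gave few changes in the family. Adam1a was higher, and Adam19 and Adam12 were lower, at a limma adjusted p under 0.05. This is 1 of 34 higher against 9.55% of all genes, and 2 of 34 lower against 6.66%. The 22 testis and epididymis members were mostly dim in ovaries, with a median level of 3.16 in wild-type and 3.19 in mutant ovaries. With dim genes (mean level of at most 5) left out, 3192 of 12285 genes were called, against 3232 of all 19938. The shares of all genes are therefore a poor yardstick for dim members. The median difference was -0.13 over the testis and epididymis members and -0.01 over the somatic members, and -0.02 over all genes. At an unadjusted p under 0.05, 6 of the 34 passed, against 28.9% of all genes. This comparison and that of testes share the wild-type ovaries, so their values are only given side by side.

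Adam19 fell most. It had 5.44, 5.47 and 5.32 in the mutant ovaries, 4.77, 4.71 and 4.74 in the testes, and 6.44 and 6.03 in the wild-type ovaries. All mutant ovaries lay below both wild-type ovaries and above all testes. The difference to wild-type ovaries was -0.83 ± 0.15 (1.78-fold lower, limma adjusted p = 0.00355), and Adam19 passed under each of the alternatives run that keeps it in the test, other than a minimum of 2-fold.

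Adam12 had 5.10, 5.42 and 5.35 in the mutant ovaries, 4.90, 4.82 and 4.92 in the testes, and 5.82 and 6.08 in the wild-type ovaries. Again the mutant ovaries lay between the other groups without overlap. The difference to wild-type ovaries was -0.66 ± 0.15 (1.58-fold lower, limma adjusted p = 0.0117). It no longer passed without wild-type ovary 2 (-0.53, adjusted p = 0.0659) or with only the ovaries in the fit (adjusted p = 0.0575).

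Markers of muscle fell as well. All 6 smooth muscle markers were lower in mutant ovaries, against 6.66% of all genes. Their mean levels were 6.78 to 7.42 in the mutant ovaries and 8.16 to 8.50 in the wild-type ovaries. Of 6 endothelial markers 3 were lower, against the same share of all genes. The endothelial mean levels were 6.71 to 7.05 in the mutant ovaries and 7.22 to 7.71 in the wild-type ovaries. Adam12 and Adam19 are known from muscle, bone and heart development, and the part of these cell types in their falls was not tested. Adam33, the smooth muscle and fibroblast member, did not pass, with 5.79, 5.83 and 5.56 in the mutant ovaries and 5.56 and 5.84 in the wild-type ovaries, a difference of 0.03 ± 0.15.

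Adam1a was the only testis member to rise. It had 5.09, 5.15 and 4.91 in the mutant ovaries, 9.77, 9.80 and 9.64 in the testes, and 4.37 and 4.57 in the wild-type ovaries. All mutant ovaries lay above both wild-type ovaries, with a difference of 0.58 ± 0.13 (1.49-fold, limma adjusted p = 0.0147), and far below the testes, with a difference of -4.69 ± 0.12. The call was lost without wild-type ovary 1 (0.48, adjusted p = 0.0528) and with only the ovaries in the fit (adjusted p = 0.0635). Adam1b did not pass, with 3.78, 3.48 and 3.62 in the mutant ovaries and 4.03 and 3.67 in the wild-type ovaries (-0.22 ± 0.15).

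Adam1a lies next to Mapkapk5, a widely expressed protein kinase gene. Mapkapk5 was 0.50 ± 0.14 higher in mutant ovaries (limma adjusted p = 0.0406), and -0.09 ± 0.14 different in testes (adjusted p = 0.597), where Adam1a was high. The Mapkapk5 call was lost without either wild-type ovary (adjusted p = 0.053 and 0.115), without mutant ovary 2 or 3 (0.0872 and 0.11), with quantile normalization (0.0556) and with only the ovaries in the fit (0.131). Whether transcription of one gene is read by probes of the other was not tested.

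None of the other testis and epididymis members passed. Their differences between mutant and wild-type ovaries ran from -0.45 (Adam25) to 0.16 (Adam21) over these 21 genes. Adam5 had 3.30, 3.45 and 3.43 in the mutant ovaries and 3.88 and 3.51 in the wild-type ovaries, a difference of -0.30 ± 0.15 (limma adjusted p = 0.207). Adam2 differed by -0.12 ± 0.14, Adam3 by -0.32 ± 0.17 and Adam32 by 0.03 ± 0.14. Of the 18 spermatocyte and spermatid markers 0 passed in either direction in this comparison, against 9.55% of all genes higher and 6.66% lower. At an unadjusted p under 0.05, 3 of the 18 passed, against 28.9% of all genes. Of 11 Sertoli cell markers 8 rose, against 9.55% of all genes. A p that misses the threshold does not show that levels were equal, and the level of a dim gene on these arrays can stay flat while its RNA changes.

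The sheddases did not pass in mutant ovaries. Adam10 had 9.61, 9.41 and 9.54 in the mutant ovaries and 9.39 and 9.26 in the wild-type ovaries, a difference of 0.19 ± 0.11 (limma adjusted p = 0.29). Adam17 had 8.48, 8.38 and 8.49 in the mutant ovaries and 8.74 and 8.63 in the wild-type ovaries, a difference of -0.24 ± 0.11 (limma adjusted p = 0.186). The mutant ovaries lay above the wild-type ovaries for Adam10 and below them for Adam17, without overlap. For Adam10 the nearest arrays were at 9.41 and 9.39. Of the 34 members, 3 lay wholly above and 7 wholly below the wild-type ovaries. The share of all genes that do so was not counted, so no lean of the family is read from these counts.

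Adam15 came close to the threshold. It had 6.99, 7.18 and 7.47 in the mutant ovaries, 6.64, 6.62 and 6.56 in the testes, and 7.58 and 7.83 in the wild-type ovaries. The difference to wild-type ovaries was -0.50 ± 0.16 (limma adjusted p = 0.0566). It did pass when wild-type ovary 1 was left out (-0.62, adjusted p = 0.0367), without mutant ovary 3 (-0.63, adjusted p = 0.0203), with quantile normalization (-0.59, adjusted p = 0.0262) and with dim genes left out (adjusted p = 0.0413). Adam9 had 8.47, 8.49 and 9.03 in the mutant ovaries and 8.41 and 8.46 in the wild-type ovaries, a difference of 0.23 ± 0.17 that did not pass.

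Adam23 varied more between ovaries than any other member. It had 6.44, 6.60 and 8.20 in the mutant ovaries, 5.07, 5.38 and 5.44 in the testes, and 6.60 and 5.29 in the wild-type ovaries. The mutant and wild-type ranges overlapped, with a difference of 1.14 ± 0.50 (limma adjusted p = 0.161), and 1 mutant ovary lay far above the other 2. Without wild-type ovary 1 the difference was 1.79 and passed (adjusted p = 0.036). Adam11 and Adam22 differed by 0.22 ± 0.18 and -0.04 ± 0.15, Adam8 by -0.12 ± 0.20 and Adam28 by 0.07 ± 0.12. Leukocyte markers had mean levels of 6.10 to 6.48 in the mutant ovaries and 5.79 to 5.85 in the wild-type ovaries. Of these 9 markers 2 were higher (Cd74 and Adgre1), against 9.55% of all genes.

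**Figure D3:**
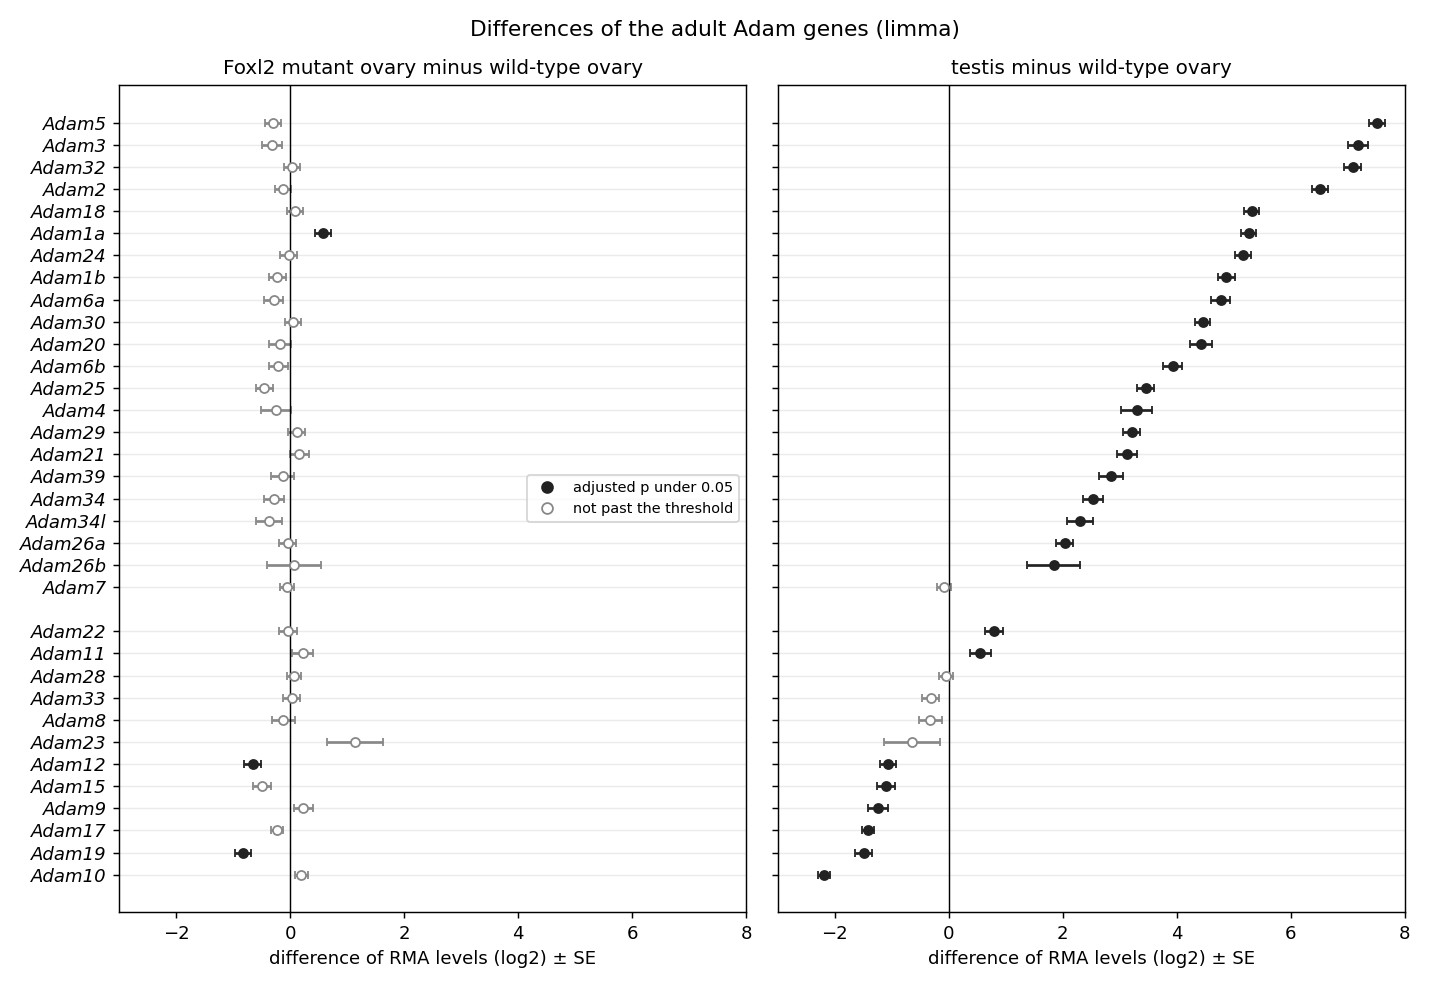
Difference of log2 RMA levels with its standard error (x axis) for each adult Adam gene, for Foxl2 mutant ovary minus wild-type ovary (left) and testis minus wild-type ovary (right), the 2 sharing the same wild-type ovaries. Filled points passed an adjusted p of 0.05. In testes 21 of 22 members of the upper block are filled and positive, and in mutant ovaries only Adam1a, Adam12 and Adam19 are filled.

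Mutant ovaries were compared with testes directly. Of the 34 genes, 8 were higher and 22 lower in mutant ovaries, against 37.5% and 24.3% of all genes. The median difference was -4.27 over the testis and epididymis members and 0.51 over the somatic members, against 0.14 over all genes. The 22 lower genes were 21 testis members, led by Adam5 (-7.82), Adam3 (-7.50) and Adam32 (-7.05), plus Adam22 (-0.83). The 8 higher genes were Adam10 (2.38), Adam23 (1.78), Adam9 (1.47), Adam17 (1.18), Adam19 (0.67), Adam15 (0.61), Adam12 (0.41) and Adam33 (0.34).

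Some of these calls were narrow. Adam12 did not pass without testis 2, mutant ovary 2 or mutant ovary 3 (limma adjusted p = 0.0659, 0.0652 and 0.0551). Adam33 (limma adjusted p = 0.0474) did not pass without testis 2 or 3 (adjusted p = 0.154 and 0.113), without mutant ovary 1 or 2 (0.12 and 0.133) or with quantile normalization (0.0997). Adam11 passed as lower without mutant ovary 3 (-0.47, adjusted p = 0.0397). Adam26b differed by -1.78, and by -1.13 without testis 3.

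Partners and substrates of the sheddases included genes that changed in mutant ovaries. Of the 15 partners and inhibitors, 5 were higher than in wild-type ovaries and 0 were lower in limma, against 9.55% and 6.66% of all genes. The count of lower genes was 2 when wild-type ovary 1 was left out and 1 when wild-type ovary 2 was. Their median was 0.28, against -0.02 over all genes. Tspan17 (2.47) and Tspan5 (1.22) are tetraspanins that escort Adam10, Rhbdf2 (1.11) carries Adam17 to the surface, and Timp2 (1.37) and Timp3 (0.62) are metalloprotease inhibitors. Tspan5 was 0.81 higher without wild-type ovary 1, and Timp3 did not pass without wild-type ovary 1 (limma adjusted p = 0.0829), without mutant ovary 2 (0.0581), without mutant ovary 3 (0.0607) or with only the ovaries in the fit (0.0901). At an unadjusted p under 0.05, 8 of the 15 passed, against 28.9% of all genes.

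Of the 20 measured substrates, 10 were higher in mutant than in wild-type ovaries and 1, Tgfa (-0.75), was lower, against 9.55% and 6.66% of all genes. Their median was 0.67, against -0.02 over all genes. Erbb4 (2.50), a neuregulin receptor, Kitl (1.22), the ligand of the Kit receptor, Cdh2 (1.07), an adhesion molecule, Cxcl16 (1.04) and Cx3cl1 (1.00), membrane chemokines, and Notch1 (1.04) rose most. The count of higher genes was 5 with a minimum of 2-fold, 8 with only the ovaries in the fit and 8 to 11 when 1 array was left out. Cxcl16 did not pass without wild-type ovary 2 (limma adjusted p = 0.0819) or mutant ovary 3 (adjusted p = 0.0522) or with only the ovaries in the fit (adjusted p = 0.0696). No substrate, Tgfa included, was lower with only the ovaries in the fit, with a minimum of 2-fold, or when mutant ovary 1, mutant ovary 3 or wild-type ovary 2 was left out. Kitl also stands on the granulosa cell marker list. These levels are of RNA and say nothing of how much protein was cut.

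In the remaining lists, too, counts are set against 9.55% of all genes higher and 6.66% lower. Of 14 sperm Adam maturation factors, Pmis2 (1.17 ± 0.18, limma adjusted p = 0.00162) was higher in mutant than in wild-type ovaries and 13 did not pass. Leaving out wild-type ovary 1 or mutant ovary 3 gave 1 lower gene. Of 9 adhesion and fusion genes 0 passed in limma, and 1 did at an unadjusted p under 0.05, against 28.9% of all genes. In that list 1 gene was higher when wild-type ovary 1, mutant ovary 3 or dim genes were left out. Of 4 Lgi ligand genes, Lgi2 (-0.61) was lower and lost its call without wild-type ovary 1 (limma adjusted p = 0.112) and with only the ovaries in the fit (adjusted p = 0.0698). Of 8 secreted relatives, Adamts15 (1.28) and Adamts9 (0.84) were higher and Adamts19 (-1.01) and Adamts4 (-0.79) lower. Adamts9 lost its call when mutant ovary 1 (0.0934), mutant ovary 3 (0.0911) or wild-type ovary 1 (0.113) was left out, Adamts19 did not pass without wild-type ovary 1 (0.093), and Adamts4 did not pass without wild-type ovary 2 (0.0766), all as limma adjusted p. With only the ovaries in the fit, Adamts15 (0.0631), Adamts9 (0.0872) and Adamts19 (0.0684) all lost their calls, which left 0 of the 8 higher and 1 lower.

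At P3, 0 of the 28 Adam genes passed a limma adjusted p of 0.05 in KO against wild-type ovaries, against 0.137% of all genes higher and 0.187% lower. At an unadjusted p under 0.05, 5 of the 28 passed, against 9.53% of all genes. Both KO samples lay above both wild-type samples for 7 genes, against 19.3% of all genes, and below them for 6 genes, against 19.7%. The median difference was -0.07 over the 16 testis and epididymis members and 0.03 over the 12 somatic members, on the scale of log2(signal + 16). With 2 pools in each group, only large and steady differences can pass.

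Adam8 had the smallest p among the members at P3. Its MAS5 signal, a linear intensity, was 477.0 and 467.7 in the KO ovaries, against 215.9 and 142.1 in the wild-type ovaries. The KO samples nearly coincided and lay above both wild-type samples. The difference was 1.35 ± 0.27 (2.55-fold on the log2(signal + 16) scale, limma adjusted p = 0.134), and it passed with dim genes left out (adjusted p = 0.0449). The mean level of leukocyte markers was 7.40 to 7.64 in the KO ovaries and 7.61 to 7.68 in the wild-type ovaries, and 0 of 9 passed. At an unadjusted p under 0.05, 3 of the 9 passed, against 9.53% of all genes. Of these, Cd74 was higher and Itgam and Lyz2 lower in KO.

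Adam10 had signals of 11339 and 9330 in the KO ovaries, against 6914 and 7227 in the wild-type ovaries. The groups did not overlap, and the difference of 0.54 ± 0.13 did not pass (limma adjusted p = 0.225). Its other 3 probe sets were dim, with signals of at most 81.4, and differed by -0.04, 0.44 and -0.18. Adam17 had 1453 and 1218 in the KO ovaries and 1629 and 1261 in the wild-type ovaries, a difference of -0.11 ± 0.18 with overlapping groups. The dimmer probe sets of Adam17 differed by -0.13 and 0.71. The latter had 125.6 and 69.8 in the KO ovaries, against 61.3 and 42.7 in the wild-type ovaries.

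Adam19 pointed up at P3 on the brighter of its 2 probe sets. The signal was 651.6 and 637.6 in the KO ovaries, against 335.9 and 602.4 in the wild-type ovaries, a difference of 0.50 ± 0.29 (limma adjusted p = 0.685). The dimmer probe set had 4.5 and 4.8 in the KO ovaries, against 44.6 and 65.3 in the wild-type ovaries, a difference of -1.77. The 2 probe sets thus ran in opposite directions, so no direction is given for Adam19 at P3. Adam12 had 1874 and 1900 in the KO ovaries and 2019 and 2181 in the wild-type ovaries, a difference of -0.15 ± 0.12.

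Probe sets disagreed in sign for other members too. For Adam15 the used probe set differed by 0.06 and the other 3 by -0.04, -0.79 and -1.06. For Adam11 the used probe set differed by 0.05 and the other by -1.28, and for Adam22 by 0.27 and -0.76. Adam33 ran the same way on both, by -0.25 and -1.49. Adam23 differed by -0.30 on the used probe set and by 0.45 on each of the other 2. Adam9 (-0.08 ± 0.16) and Adam28 (0.02 ± 0.39) had overlapping groups.

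Testis members had mostly low signals at P3, from 0.8 to 495.4 in the KO ovaries and 3.2 to 354.3 in the wild-type ovaries. The somatic members ran from 69.4 to 11339 in the KO ovaries and 86.3 to 7227 in the wild-type ovaries. Adam26a had 6.0 and 8.6 in the KO ovaries, against 53.1 and 49.2 in the wild-type ovaries, a difference of -1.53 ± 0.35 (limma adjusted p = 0.188). Adam6a had 34.0 and 55.3 in the KO ovaries, against 13.8 and 3.6 in the wild-type ovaries, a difference of 1.30 ± 0.42. Adam7 had 37.1 and 63.8 in the KO ovaries, against 24.9 and 4.1 in the wild-type ovaries, a difference of 1.18 ± 0.48. The groups of these 3 genes did not overlap, none passed, and the size of each difference depended on the pseudocount. With a pseudocount of 1 and of 64 the differences were -2.67 and -0.69 for Adam26a, 2.43 and 0.58 for Adam6a, and 2.11 and 0.55 for Adam7.

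Adam1a had P3 signals of 66.4 and 60.3 in the KO ovaries and 78.3 and 58.8 in the wild-type ovaries. The groups overlapped, with a difference of -0.08 ± 0.35, and Mapkapk5 differed by -0.30 ± 0.14 (limma adjusted p = 0.609). Adam1b had 45.3 and 31.6 in the KO ovaries and 53.3 and 90.2 in the wild-type ovaries, a difference of -0.67 ± 0.40. The brightest testis member, Adam4, had 265.7 and 495.4 in the KO ovaries and 213.2 and 354.3 in the wild-type ovaries.

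**Figure D4:**
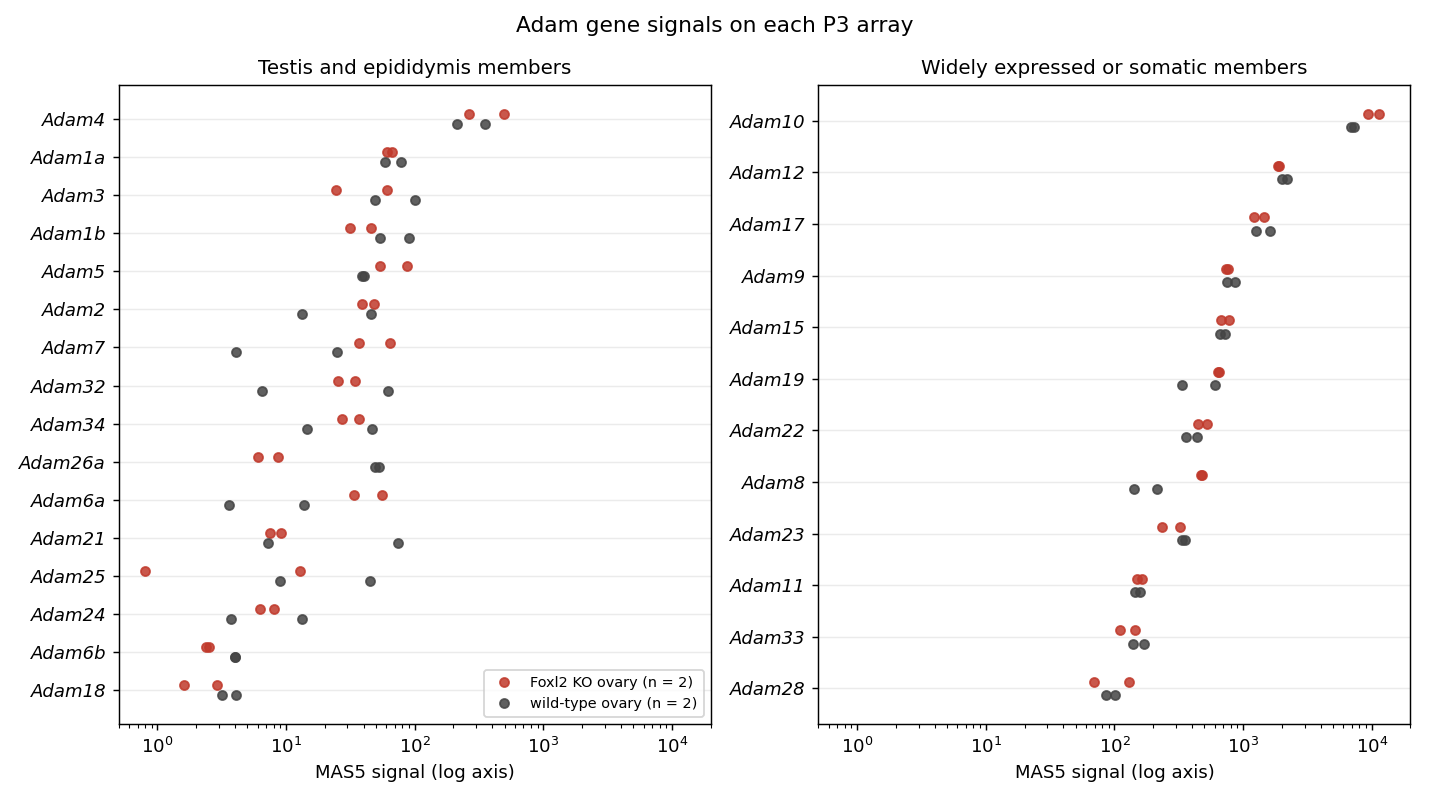
MAS5 signal on a log axis (x axis) of each Adam gene on each P3 array, with 2 Foxl2 KO samples (red) and 2 wild-type samples (grey), each a pool. Both KO points lie right of both wild-type points for 7 genes, Adam8 and Adam10 among them, against 19.3% of all genes. They lie left for 6 genes, Adam26a among them, against 19.7%. None of the 28 genes passed the adjusted threshold.

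At P3 0 genes passed the adjusted threshold in limma in each of these lists of maturation factors, adhesion genes, partners, substrates, Lgi ligands and secreted relatives. At an unadjusted p under 0.05, 2 of 14 maturation factors passed, 1 of 9 adhesion and fusion genes, 2 of 15 partners and inhibitors, 2 of 20 substrates, 1 of 4 Lgi ligand genes and 1 of 8 secreted relatives, against 9.53% of all genes. In the secreted relatives 1 gene was lower with dim genes left out. The partners and inhibitors had a median difference of 0.14 and the substrates of -0.06, against -0.01 over all genes.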

How the data were processed

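RNA of adult and P3 gonads was measured on 2 array platforms. Per the submitters' processing notes, the adult values were made by RMA in Affymetrix Expression Console and are deposited as log2 levels. Per the same notes, the P3 values are MAS5 signals, deposited as a linear intensity, and each P3 array has a trimmed mean of 500. No version of either program is stated in the labels or notes used here. The labels' P3 labelling protocol names CodeLink, whereas the probe names have the Affymetrix form. The adult table had 35557 probe sets, of which 21789 had 1 gene symbol, 1621 several and 12147 none. The P3 table had 45101, of which 34958, 932 and 9211 did. Symbols were updated by gene ID through the RefSeq gene table of GRCm38.p6, and 1 probe set per gene, that with the highest mean, was used. Probe sets with several genes were left out, 2 with an Adam gene in adults and 5 at P3.

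Differences were tested with limma 3.58.1 in R 4.3.3 (lmFit, eBayes with an intensity trend, two-sided). The 8 adult arrays were fitted together and the 4 P3 arrays alone, on log2(signal + 16). P-values were adjusted by Benjamini-Hochberg over all genes of a platform, with a threshold of 0.05. The fit was tested on simulated data. The number of arrays limits the precision. Members and gene lists were chosen with earlier results of these data known. Every Adam gene was a member. Those past the threshold and all somatic members were described, and from the other lists at most 6 of the largest changes past the threshold. Genes named because a call of theirs was lost fall under the same rule or were chosen after their values were seen. Whether the labels' replicate numbers pair the arrays was not settled. Deviations from the group mean correlated at -0.0028 to 0.079 for same-numbered adult arrays. Between testes and mutant ovaries these correlations were 0.0575 to 0.079, against -0.0595 to -0.00165 for different numbers. At P3, groups of 2 fix the values as mirror images (0.0423 and -0.0423), so no pairing can be read there. The main fit did not use the numbers. P-values rest on the spread between these arrays. In adults this spread was pooled over the testes and both ovary groups, so p-values between ovaries rest partly on the testes. Arrays correlated at 0.995 to 0.996 within testes, 0.989 to 0.991 within mutant ovaries and 0.976 within wild-type ovaries. With only the ovaries fitted, 1731 genes were called between mutant and wild-type ovaries, against 3232. That fit also holds fewer arrays.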

Additional observations from a re-analysis of the deposited data

Results flagged for a closer look

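On the probe sets used, all mutant or KO arrays of Adam19 and Adam5 lay below the wild-type arrays in adults and above them at P3. Adam19 differed by -0.83 between adult mutant and wild-type ovaries and by 0.50 between P3 KO and wild-type ovaries. Adam5 differed by -0.30 in adults and by 0.61 at P3. Only the adult Adam19 difference passed in limma. At P3 both KO arrays lay above both wild-type arrays for 19.3% of all genes. The share of all genes that separate in opposite directions at the 2 ages was not counted. Adam5 was dim, with levels of 3.30 to 3.88 in adult ovaries, where the median over genes was 5.50 to 5.60. Its P3 signals were 38.7 to 87.3. The difference between the ages was not tested, and the ages were measured on different platforms. The dimmer P3 probe set of Adam19 differed by -1.77 and the mean of its probe sets by -0.63, the adult direction, so the opposite direction of Adam19 holds for 1 of its 2 P3 probe sets.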

How the results depend on the processing

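In adult mutant against wild-type ovaries, fitting only the ovaries left 0 Adam genes higher and 1 lower, and a minimum of 2-fold left 0 and 0. Leaving out 1 array gave 1 higher and 1 to 3 lower. In testes against wild-type ovaries, leaving out dim genes left 12 higher, and leaving out 1 array gave 22 to 23 higher and 6 to 7 lower. In mutant ovaries against testes, a minimum of 2-fold left 4 higher and leaving out dim genes left 11 lower. Leaving out 1 array gave 6 to 8 higher and 22 to 23 lower. At P3, 1 gene, Adam8, passed with dim genes left out and with the replicate block (limma adjusted p = 0.0449 and 0.0479). The labels do not say what a replicate number stands for. With the replicate block, all genes called went to 305 at P3, against 59, and to 2674 in adult mutant ovaries, against 3232; Adam33 between mutant ovary and testis (adjusted p = 0.0696) lost its call.

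Over all genes, the calls between mutant and wild-type ovaries were 1731 with only the ovaries fitted and 1119 with a minimum of 2-fold, against 3232. With a minimum of 2-fold they were 6909, against 12028, in testes against wild-type ovaries, and 7181, against 12328, in mutant ovaries against testes. At P3 they were 0 without the intensity trend, 211 with dim genes left out, 22 with the mean of probe sets and 0 to 22 without 1 array, against 59.

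Directions turned only for differences that had not passed. Without 1 array, mutant minus wild-type ovary ran from -0.013 to 0.45 for Adam11, -0.14 to 0.056 for Adam22, -0.034 to 0.17 for Adam28, -0.12 to 0.17 for Adam33 and -0.39 to 0.15 for Adam8. Testis minus wild-type ovary ran from -1.30 to 0.010 for Adam23 and -0.15 to 0.053 for Adam28, which was 0.0099 with the replicate block. P3 KO minus wild-type ran from -0.019 to 0.11 for Adam11, -0.047 to 0.17 for Adam15, -0.29 to 0.076 for Adam17, -0.36 to 0.40 for Adam28 and -0.18 to 0.017 for Adam9. The mean of probe sets turned P3 differences of Adam11 (-0.62), Adam15 (-0.46), Adam17 (0.16), Adam19 (-0.63), Adam22 (-0.24), Adam23 (0.20) and Sox9 (-0.020). The cause was not tested. Groups of 2 or 3 arrays limit what can pass, and dim probes can understate a change.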
